A study of Homo sapiens with 6 samples.

Results

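Serine, one-carbon and asparagine synthesis enzymes are described here as 10 genes, ASNS, PHGDH, PSAT1, PSPH, SHMT2, MTHFD2, ALDH1L2, PCK2, CTH and PYCR1, out of 67140 gene identifiers in a table of RNA sequencing counts. All 10 were among the 19254 identifiers that passed the filter on low counts. They were chosen by name as enzymes of these pathways after their log2 fold changes between the groups had been seen, so those differences are given below as a description and without a test. The counts come from KYSE150, a long-established cell line from a human squamous cell carcinoma of the esophagus, grown with fetal bovine serum. It carried either a control hairpin (shCtrl, 3 samples) or a hairpin against the long noncoding RNA AC007128.1 (shAC007128.1, 3 samples). Both groups were stable lines made with lentivirus and puromycin, each with 1 hairpin, so an effect particular to that hairpin and an effect of lowering AC007128.1 cannot be told apart. The labels do not say whether the 3 samples of a group were separate cultures, so p-values measure the spread between these samples, which may be technical.

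Cells make serine from an intermediate of glycolysis in a short chain of enzymes, and serine then gives a carbon unit to folate, mostly in mitochondria, for building nucleotides. The same cells make asparagine from aspartate, proline from glutamate and cysteine from methionine by separate enzymes. In many tumor lines transcription of these enzymes rises together when amino acids run short, through the factor ATF4, which binds DNA with partners of the C/EBP family.

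The hairpin is printed to show what set the groups apart. Capitals mark the first 19 bases, which equal a siRNA sequence against AC007128.1 among the designed sequences of the study. They were not aligned to AC007128.1 here.
shAC007128.1 hairpin: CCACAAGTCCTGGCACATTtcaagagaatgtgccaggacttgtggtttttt

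Libraries held 55764405 to 78610457 counts each, at which 3 counts equal 0.0382 to 0.0538 CPM (counts relative to library size, scaled by edgeR's TMM factors). AC007128.1 (ENSG00000229970) had counts of 69, 33 and 53 in the shCtrl samples and of 18, 37 and 15 in the shAC007128.1 samples, so the groups overlapped. Between groups it differed by -0.77 on the log2 scale (standard error 0.51, edgeR adjusted p = 0.271, two-sided exact permutation p = 0.2 where 0.1 is the smallest that 3 against 3 samples allow). The study reports lower AC007128.1 by qPCR in cells with this hairpin, a separate measurement from these counts. Of 8 squamous epithelial markers, 8 had at least 3 counts in every sample, with summed levels of 1927 to 1969 CPM in shCtrl cells and 2870 to 3630 CPM in shAC007128.1 cells. Leukocyte markers summed to 59.1 to 68.0 CPM and 14.8 to 24.2 CPM, nearly all of it CD68, while PTPRC, which defines leukocytes, had at most 9 counts in any sample. The 5 fibroblast markers summed to 15.3 to 16.04 CPM and 20.9 to 23.9 CPM, and the 3 endothelial markers to 2.12 to 3.11 CPM and 0.302 to 2.02 CPM. The part of these marker differences in the results below was not tested.

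The 10 enzymes did not all move alike: PYCR1, PCK2 and ASNS were lowest relative to control, PSAT1, CTH, PHGDH and SHMT2 were lower by less, and PSPH, MTHFD2 and ALDH1L2 overlapped between groups. A gene was called where edgeR's adjusted p was 0.05 or less and its level differed by 1 or more on the log2 scale, and by this rule 6 of the 10 enzymes were called lower in shAC007128.1 cells and 0 higher. Among all genes tested 10.1% were called lower and 5.57% higher, and nothing is read from the members' count because the members were chosen with this contrast known. The median log2 fold change of the members was -1.11, against -0.02 over all genes tested. Together the 10 transcripts made up 0.161% to 0.166% of all counts in shCtrl samples and 0.0686% to 0.0688% in shAC007128.1 samples. Summed over the enzymes, shCtrl cells held 1594 ± 43.3 CPM (SD, n = 3) and shAC007128.1 cells 705 ± 8.21 CPM (SD, n = 3), 44.2% of control. For 7 of the 10, all shAC007128.1 samples were below all shCtrl samples, and for 0 all were above, while 28.2% of genes tested were separated downward and 27.0% upward in this way. In bulk RNA, fewer cells expressing a gene and less of its RNA per cell cannot be told apart.

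**Figure D1:**
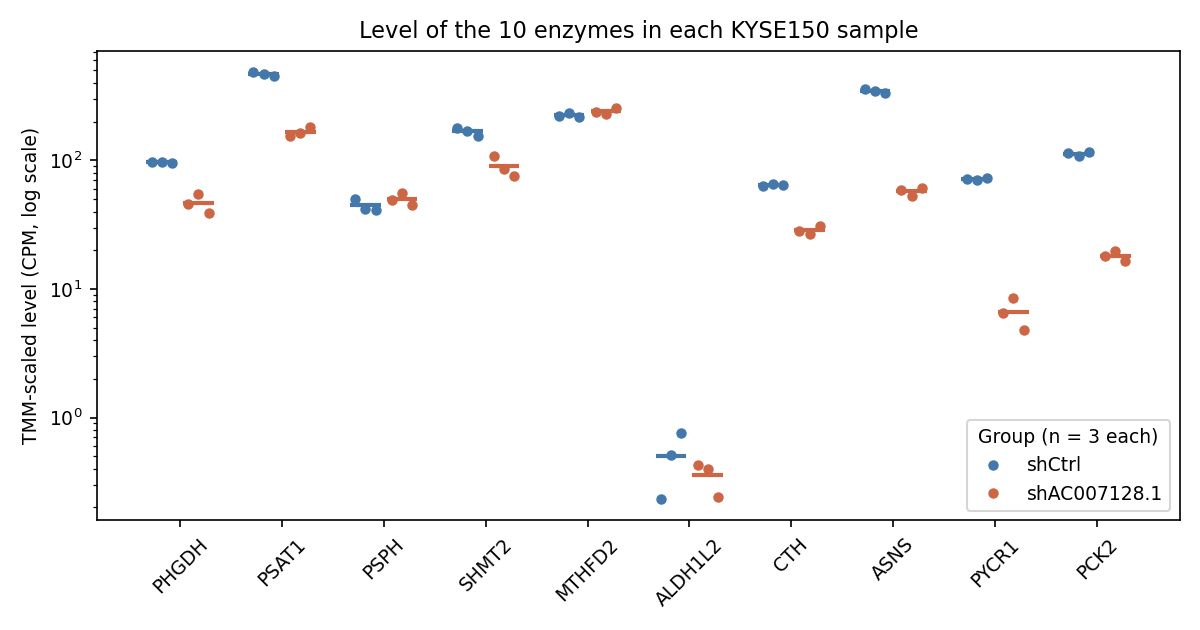
TMM-scaled level in CPM on a log axis (vertical) of each enzyme (horizontal) in the 3 shCtrl and 3 shAC007128.1 samples of KYSE150 cells; points are samples and bars are group means. The groups are apart, with shCtrl above, in 7 enzymes and overlap in PSPH, MTHFD2 and ALDH1L2.

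Serine synthesis begins with PHGDH (ENSG00000092621, hg38 chromosome 1, 119648411 to 119744218, plus strand), which oxidises 3-phosphoglycerate taken from glycolysis. PHGDH stood at 96.4, 97.3 and 95.9 CPM in shCtrl samples and at 46.1, 54.3 and 38.9 CPM in shAC007128.1 samples. The groups did not overlap, and the spread was 0.710% of the mean in shCtrl cells but 16.6% in shAC007128.1 cells. This amounted to a log2 fold change of -1.06 (standard error 0.12), or 48.1% of control, and 14.0% of all genes tested had a lower value. PHGDH lay close to the limit on fold change: without shAC007128.1 replicate 3, its lowest sample, the value was -0.95 and it was not called.

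PSAT1 (ENSG00000135069, chromosome 9, 78297125 to 78330093, plus strand) is the aminotransferase of the next step, taking its nitrogen from glutamate. Its level was 486, 467 and 453 CPM in shCtrl samples and 154, 163 and 181 CPM in shAC007128.1 samples. All 3 shAC007128.1 samples were below all 3 controls. PSAT1 thus differed by -1.50 on the log2 scale (standard error 0.08), which left 35.4% of the control level.

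PSPH (ENSG00000146733, chromosome 7, 56011051 to 56051604, minus strand), the phosphatase that releases free serine, did not follow the enzymes before it. Its samples read 50.3, 42.1 and 41.4 CPM in shCtrl cells and 48.8, 56.0 and 45.2 CPM in shAC007128.1 cells. The groups overlapped, the highest control lying above 2 of the 3 shAC007128.1 samples. PSPH differed by 0.16 on the log2 scale (standard error 0.12). The pseudogene PSPHP1 held 3.64% as many counts as PSPH, and how reads common to both were assigned is not given in the sources used here.

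The mitochondrial folate enzymes also differed among themselves. SHMT2 (ENSG00000182199, chromosome 12, 57229573 to 57234935, plus strand) moves the carbon unit of serine onto folate and leaves glycine. SHMT2 was at 179, 169 and 156 CPM in shCtrl samples and at 109, 85.3 and 76.0 CPM in shAC007128.1 samples. The groups were apart, with shAC007128.1 replicate 1 nearest to the controls. With a log2 fold change of -0.90 (standard error 0.14), this less than the limit on fold change, so SHMT2 was not called. Without shAC007128.1 replicate 1 it was -1.06 and SHMT2 was called lower.

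MTHFD2 (ENSG00000065911, chromosome 2, 74186172 to 74217565, plus strand) oxidises the carbon unit that SHMT2 loads. Its level was 220, 233 and 217 CPM in shCtrl samples and 237, 230 and 258 CPM in shAC007128.1 samples. One control lay within the range of the shAC007128.1 samples, and the log2 fold change was 0.11 (standard error 0.07).

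ALDH1L2 (ENSG00000136010, chromosome 12, 105019784 to 105107643, minus strand) oxidises the formyl unit to carbon dioxide and had far lower counts than the other members. Its counts were 17, 41 and 51 in shCtrl samples and 24, 22 and 14 in shAC007128.1 samples. These are 0.232, 0.510 and 0.752 CPM against 0.427, 0.401 and 0.241 CPM, with overlapping groups. On the log2 scale it differed by -0.48 (standard error 0.53), and values from -0.82 to -0.07 were obtained by leaving out 1 sample at a time, so no difference was detected.

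CTH (ENSG00000116761, chromosome 1, 70411218 to 70439851, plus strand) cleaves cystathionine to give cysteine, the last step of transsulfuration, whose first step joins serine to homocysteine. CTH measured 63.4, 65.3 and 64.3 CPM in shCtrl samples and 28.2, 26.8 and 31.1 CPM in shAC007128.1 samples. The controls lay within a narrow range and every shAC007128.1 sample was below them. CTH was left at 44.6% of control, a log2 fold change of -1.16 (standard error 0.09). CBS, the enzyme of the first step, had only 4, 5 and 2 counts in shCtrl samples and 0 in each shAC007128.1 sample, and it did not pass the filter. How reads that match more than one locus were counted is not given in the sources used here. These counts therefore may not show how much CBS is transcribed.

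ASNS (ENSG00000070669, chromosome 7, 97851677 to 97872542, minus strand) makes asparagine from aspartate with nitrogen from glutamine. Its level was 356, 344 and 334 CPM in shCtrl samples and 59.0, 52.4 and 61.1 CPM in shAC007128.1 samples. The highest shAC007128.1 sample remained far below the lowest control. That is a level 5.99-fold lower (log2 fold change -2.58, standard error 0.08), and 2.56% of genes tested had a lower value. ASNS shares 2415 of its 4896 exonic bases on the same strand with the annotated locus ENSG00000284707, so its count is uncertain to the extent that reads were split. That locus held 4.91% as many counts as ASNS and had a log2 fold change of -1.43.

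PYCR1 (ENSG00000183010, chromosome 17, 81932384 to 81942412, minus strand) reduces pyrroline-5-carboxylate to proline in mitochondria. PYCR1 was at 71.2, 70.2 and 72.9 CPM in shCtrl samples and at 6.49, 8.52 and 4.77 CPM in shAC007128.1 samples. It had the lowest log2 fold change of the 10 enzymes, -3.44 (standard error 0.21), a level 10.8-fold lower, with 1.15% of genes tested lower still. The shAC007128.1 samples varied by 28.5% of their mean and the controls by 1.98%. Its exons share 408 bases on the same strand with MYADML2, which had 0.231% as many counts.

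PCK2 (ENSG00000100889, chromosome 14, 24094053 to 24110598, plus strand) makes phosphoenolpyruvate in mitochondria, from which the serine precursor can be formed. PCK2 was at 114, 108 and 115 CPM in shCtrl samples and at 18.2, 19.8 and 16.5 CPM in shAC007128.1 samples. No shAC007128.1 sample came near the controls. Its mean was 6.20-fold lower (log2 fold change -2.63, standard error 0.10).

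Across the enzymes, ASNS and PSAT1 together gave 50.7% to 51.4% of the members' summed CPM in shCtrl samples and 30.1% to 33.9% in shAC007128.1 samples. Divided by the length of all annotated exons, to compare genes, the order in shCtrl cells ran from PSAT1 (212 CPM per kilobase) over ASNS (70.4), SHMT2 (36.6), PCK2 (26.9), CTH (26.6), PYCR1 (24.8), MTHFD2 (19.5), PSPH (16.1) and PHGDH (10.5) to ALDH1L2 (0.0525). Only PCK2 and CTH, neighbours in this order, overlapped. In shAC007128.1 cells PSAT1 was again highest, at 75.2 CPM per kilobase, and was followed by MTHFD2 (21.1), SHMT2 (19.6), PSPH (18.1), CTH (11.9), ASNS (11.8), PHGDH (5.06), PCK2 (4.35), PYCR1 (2.28) and ALDH1L2 (0.0375). In that order the samples of MTHFD2 and SHMT2, SHMT2 and PSPH, CTH and ASNS, and PHGDH and PCK2 overlapped. MTHFD2 thus stood below 6 members in shCtrl cells and below 1 in shAC007128.1 cells. The order depends on the length used: by the longest coding transcript MTHFD2 stood at 50.7 CPM per kilobase in shCtrl cells, below 3 members, and again below 1 in shAC007128.1 cells. By that length PHGDH stood at 37.3 CPM per kilobase in shCtrl cells, in place 6 of the 10, against place 9 by all exons.

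The enzymes did not all deviate together among samples of a group. Among the 45 pairs of members, the correlation of their deviations from the group means, pooled over both groups, was positive in 21, with a median of -0.30 and a range from -0.98 to 0.99. Pooled over both groups, PHGDH, PCK2 and PYCR1 deviated together (0.994 for PHGDH and PYCR1, 0.942 for PCK2 and PYCR1, 0.905 for PHGDH and PCK2), and CTH deviated oppositely to PYCR1 (-0.977) and PHGDH (-0.964). These correlations rest on 6 samples that share libraries and scaling factors, and mostly on shAC007128.1 replicates 2 and 3. There PHGDH deviated by 0.238 and -0.242 and PYCR1 by 0.408 and -0.426. In shCtrl replicates 2 and 3 these genes deviated in opposite directions, PHGDH by 0.011 and -0.009 and PYCR1 by -0.026 and 0.030. CTH and PHGDH deviated with the same sign in every shCtrl sample.

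Several members have an isozyme in another compartment or of the same reaction. SHMT1, the cytosolic counterpart of SHMT2, had 49.2, 50.5 and 46.2 CPM in shCtrl samples and 71.3, 76.4 and 57.5 CPM in shAC007128.1 samples. Its groups were apart in the opposite direction to SHMT2, by 0.49 on the log2 scale (standard error 0.12, edgeR adjusted p = 0.0136), short of the limit on fold change. MTHFD1, the cytosolic enzyme that also carries the MTHFD2 reaction, stood at 204, 202 and 197 CPM against 291, 288 and 290 CPM. It was higher in 3 of 3 shAC007128.1 samples, by 0.53 on the log2 scale (standard error 0.06, edgeR adjusted p = 0.000428), and again not called.

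PYCR3, an isozyme of PYCR1, differed by 0.24 on the log2 scale (standard error 0.21, edgeR adjusted p = 0.397), and its groups overlapped. MTHFD2L, the nearest relative of MTHFD2, differed by -0.42 (standard error 0.31, edgeR adjusted p = 0.323), and ALDH1L1 by 0.18 (standard error 0.33, edgeR adjusted p = 0.69). PCK1, the cytosolic counterpart of PCK2, had 5 counts in shAC007128.1 replicate 2 and 0 in the other samples, so PCK2 supplied nearly all transcripts of this reaction.

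**Figure D2:**
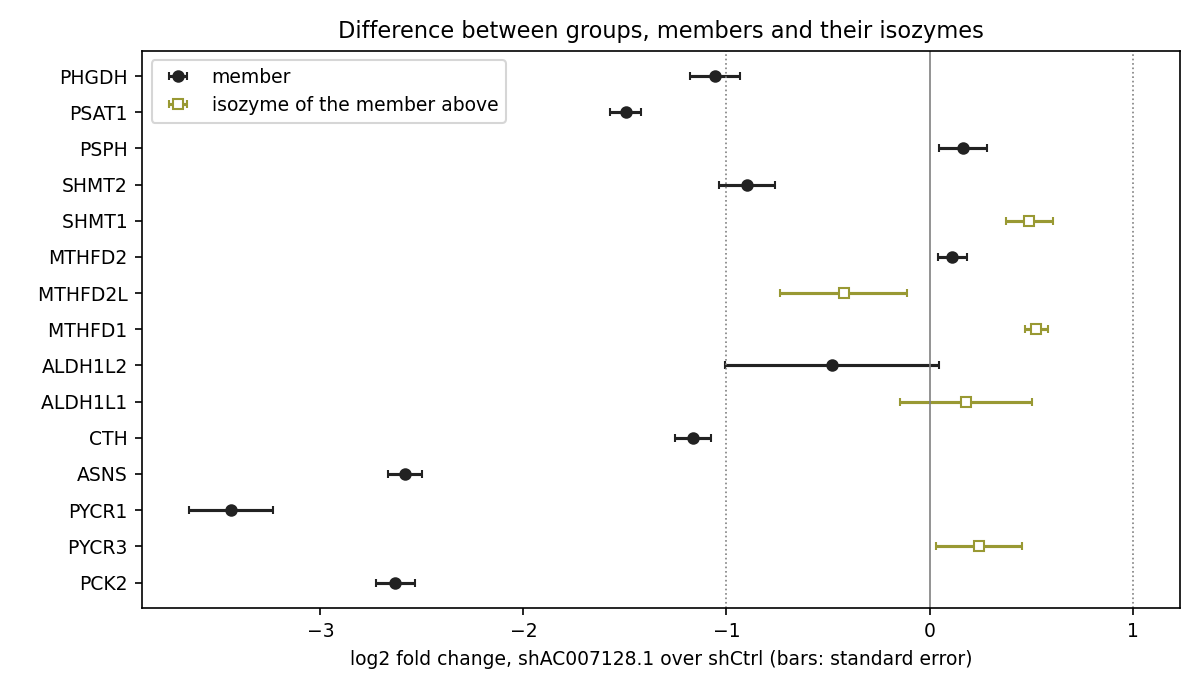
Log2 fold change of shAC007128.1 over shCtrl cells (horizontal) for the 10 enzymes (filled circles) and their isozymes (open squares), with standard errors as bars and dotted lines at the limit for a call. PYCR1, PCK2 and ASNS lie below -2, while the isozymes shown lie between -0.42 and 0.53.

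The share of a member in the RNA of an isozyme pair differed between groups for some pairs and not for others. Per kilobase of exon, SHMT2 made up 84.0% ± 0.594 (SD, n = 3) of SHMT2 and SHMT1 together in shCtrl cells and 66.6% ± 3.48 in shAC007128.1 cells. PYCR1 went from 87.5% ± 3.00 to 34.6% ± 5.49 of PYCR1 and PYCR3. PYCR1 was thus the larger of this pair in every shCtrl sample and the smaller in every shAC007128.1 sample. MTHFD2 went from 62.8% ± 0.826 to 55.8% ± 1.40 of MTHFD2 and MTHFD1, where the MTHFD1 level moved more than that of MTHFD2. MTHFD2 made up 95.3% ± 0.262 of MTHFD2 and MTHFD2L in shCtrl cells and 96.8% ± 1.24 in shAC007128.1 cells, a small difference in the opposite direction. ALDH1L2 made up 40.0% ± 17.2 and 30.4% ± 6.09 of ALDH1L2 and ALDH1L1, with overlapping groups. This share depends on the length used: by the longest coding transcript it was 16.2% in shCtrl cells and 10.6% in shAC007128.1 cells. As each share contains a member, these values are a description.

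**Figure D3:**
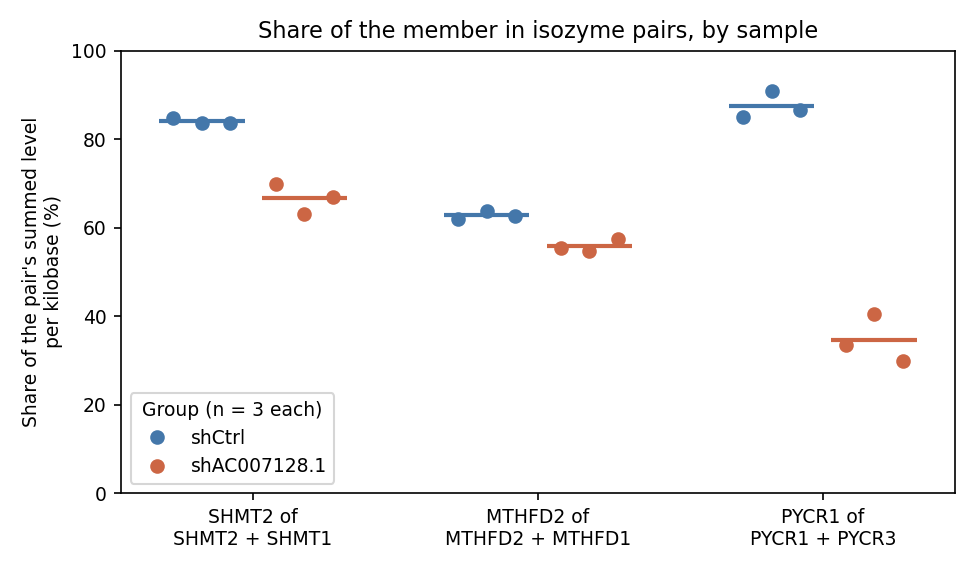
Share of a member in the summed level per kilobase of exon of an isozyme pair, in percent (vertical), for 3 of the pairs (horizontal) in the 3 shCtrl and 3 shAC007128.1 samples; points are samples and bars are means. The PYCR1 share of PYCR1 and PYCR3 was 87.5% in shCtrl cells and 34.6% in shAC007128.1 cells on average, and the groups are apart in the 3 pairs.

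Around the 10 enzymes, 103 further genes of the same pathways and their regulators were examined, of which 91 were tested. Of these, 19 (20.9%) were called lower and 7 (7.69%) higher, beside 10.1% and 5.57% over all genes. Their median log2 fold change was -0.15. The lists were chosen with earlier results of these data known, so these counts and the p-values of genes named from them are a description. The 31 tested companions of serine, glycine and folate metabolism split, with 3 called lower (9.68%, near the share over all genes), 6 higher (19.4%) and a median of 0.09. Those called higher included TYMS, which makes thymidylate from the folate carbon unit. TYMS went from 33.3, 29.8 and 31.8 CPM to 119, 108 and 110 CPM (log2 fold change 1.83, edgeR adjusted p = 2.24e-05). SFXN1, which carries serine into mitochondria, was higher at 1.05 (edgeR adjusted p = 0.00015).

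The genes of this list called lower included DMGDH and the folate receptor FOLR1. DMGDH was at -2.12 (edgeR adjusted p = 0.00406), from only 1.49 CPM on average in shCtrl cells. FOLR1 had 16, 32 and 12 counts in shCtrl samples and 0 in every shAC007128.1 sample. TYMS shares 967 of its 2421 exonic bases with ENOSF1 on the opposite strand, and whether counting used strand is not given in the sources used here.

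Of 16 tested companions of methionine and cysteine metabolism, 4 (25%) were called lower and 0 higher, with a median of -0.31. Over all genes tested 10.1% were called lower and 5.57% higher. GCLC, which starts glutathione synthesis from cysteine, fell from 321, 314 and 305 CPM to 95.8, 98.4 and 99.6 CPM (log2 fold change -1.68, edgeR adjusted p = 1.6e-05). CHAC1, which degrades glutathione, fell by 2.94 on the log2 scale (edgeR adjusted p = 6.58e-05), and TST had a log2 fold change of -1.25 (edgeR adjusted p = 0.000463). The lower genes of this list thus included one that makes and one that degrades glutathione.

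Of 22 tested companions of asparagine, aspartate, glutamate and proline metabolism, 5 (22.7%) were called lower and 0 higher, with a median of -0.13. The shares over all genes tested were 10.1% and 5.57%. ASS1, which joins aspartate to citrulline, went from 212, 196 and 183 CPM to 108, 89.2 and 76.9 CPM (log2 fold change -1.11, edgeR adjusted p = 0.000628). PRODH, which breaks proline down, fell by 1.29 on the log2 scale from 2.16 CPM on average (edgeR adjusted p = 0.00271). BCAT1, an aminotransferase of branched-chain amino acids, fell by 2.94 from 2.19 CPM on average (edgeR adjusted p = 0.00168). ALDH18A1, which makes the precursor that PYCR1 reduces, was at -0.12 (edgeR adjusted p = 0.173). None of the 7 tested companions at phosphoenolpyruvate and pyruvate was called by edgeR in either direction.

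Of 15 regulators of these enzymes in stress, all tested, 7 (46.7%) were called lower and 1 (6.67%) higher, with a median of -0.67. Over all genes tested these shares were 10.1% and 5.57%. TRIB3, a pseudokinase that binds ATF4, went from 381, 409 and 349 CPM to 82.4, 72.4 and 71.5 CPM (log2 fold change -2.33, edgeR adjusted p = 1.6e-05). SESN2, a leucine sensor, fell by 2.17 on the log2 scale (edgeR adjusted p = 2.37e-05), and CEBPB, a C/EBP factor, had a log2 fold change of -2.13 (edgeR adjusted p = 2.96e-05). ATF5 was the regulator called higher, at 1.47 (edgeR adjusted p = 0.000574), from 2.12 CPM on average, and 565 of its 2892 exonic bases overlap NUP62 on the opposite strand. ATF4 itself, given here after its values were seen, had 457, 440 and 427 CPM in shCtrl samples and 301, 279 and 248 CPM in shAC007128.1 samples. Its groups were apart, but at -0.67 on the log2 scale (standard error 0.08, edgeR adjusted p = 0.000749) it did not reach the limit for a call. The kinases upstream of it were not called: EIF2AK3 was at -0.26 (edgeR adjusted p = 0.0518), EIF2AK4 at 0.22 (edgeR adjusted p = 0.0685), EIF2AK1 at -0.15 (edgeR adjusted p = 0.164) and EIF2AK2 at 0.54 (edgeR adjusted p = 0.000592). All of these are RNA levels, and neither kinase activity nor ATF4 protein can be read from them.

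**Figure D4:**
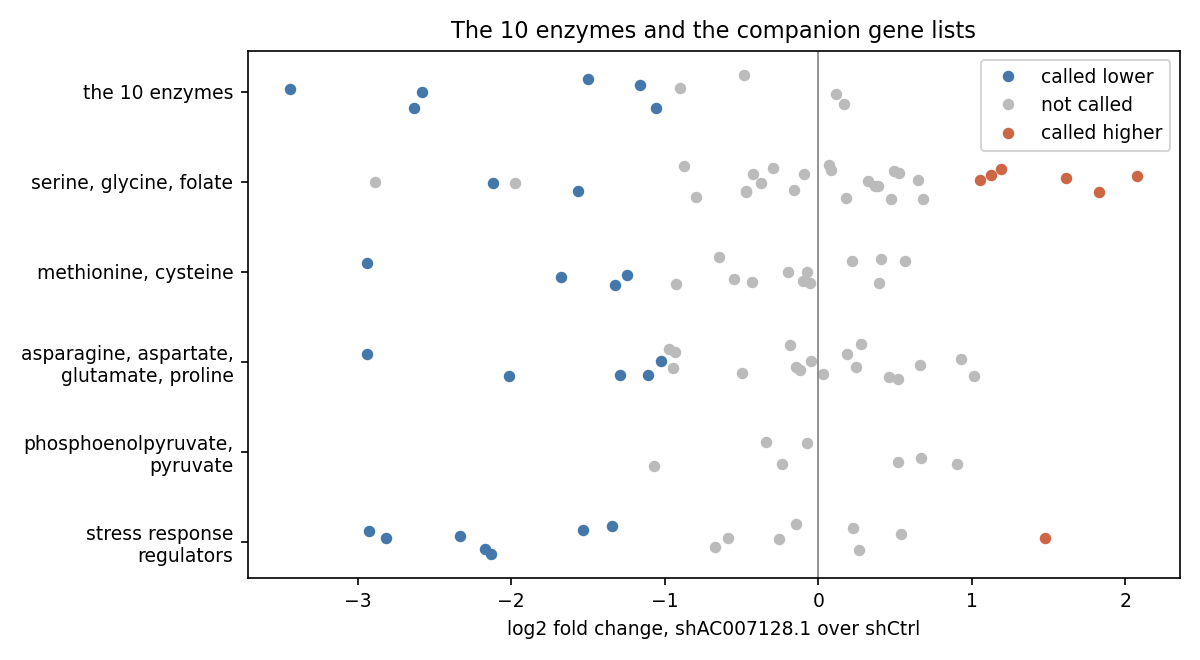
Log2 fold change of shAC007128.1 over shCtrl cells (horizontal) of the 10 enzymes and of the tested genes in 5 companion lists (vertical), 1 point per gene, coloured by call. FOLR1, at 0 counts in every shAC007128.1 sample, is left out. Of the 15 stress regulators 7 were called lower, and of the 31 folate companions 6 higher, beside 10.1% and 5.57% over all genes tested.

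The promoter of ASNS is shown because its response to amino acid supply is known to run through a C/EBP-ATF element, the kind of site at which ATF4 binds. RefSeq promoter windows (GRCh38, 250 bases before to 50 after a start site) were matched for 6 members, ASNS, PHGDH, PSAT1, MTHFD2, PCK2 and CTH, and PSPH, SHMT2, ALDH1L2 and PYCR1 were not searched. The core TGATGNAA, looked for on both strands, occurred in 3.617% of all 35116 windows (95% Wilson interval 3.426% to 3.817%). Among the members only ASNS had it, in 1 of its 2 windows, 68 bases before the start site at position 97872408, at chr7:97872469-97872476. GENCODE v44 places the match in an untranslated exon of 2 of the 17 annotated ASNS transcripts, which start further upstream. It is printed with 11 bases on either side (chr7:97872458-97872487, minus strand), with the core in capitals.
ASNS promoter: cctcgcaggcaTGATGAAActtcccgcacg

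The E-box CACGTG was in 7.256% of windows and in 0 of the 6 members. The antioxidant response core TGACNNNGC was in 13.347% of windows and in MTHFD2, after its start site. A match is a run of letters and not evidence of binding, and its absence says only that these letters are not in the window.

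Over the 6 samples, 5 genes outside the set were most like the mean standardised profile of the 10 enzymes, out of 10345 genes whose log2 CPM averaged 3 or more. They were ST6GALNAC2, PHC2, ALG12, CTC1 and TIMP2, with Pearson r from 0.9989 to 0.9995. This likeness rests on the difference between the groups, and 1664 genes had an r of at least 0.9. Among the members, r with that profile ran from 0.997 for PYCR1 and 0.995 for PCK2 to 0.957 for SHMT2, and was 0.38 for ALDH1L2, -0.49 for PSPH and -0.74 for MTHFD2.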

How the data were processed

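The authors filtered reads, mapped them to hg38 with TopHat and made FPKM values with Cufflinks; the submitters' processing notes name CASAVA 1.8 and TopHat2 2.0.6, a different TopHat version from that in the methods, and list the mouse build mm10 beside GRCh38 without saying what it was used for. Their deposited values are estimated counts by Ensembl identifier, whole numbers without normalization. The counting program, annotation and use of strand are not given in the sources used here. Samples were mapped to groups by their titles and descriptions, and 0 sample columns were left unmapped. The labels' treatment text names shAC007128.1 for every sample and does not separate the groups.

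Of 67140 identifiers, 60357 had a GENCODE v44 name. filterByExpr kept 19254, and after TMM scaling these were tested with edgeR 4.0.16 (quasi-likelihood, Benjamini-Hochberg over all of them) in R 4.3.3. Calls needed an adjusted p up to 0.05 and a difference of 1 or more on the log2 scale, and standard errors are the fold change divided by the root of F. The step was tested on counts drawn from the real means with 200 changed genes: it called 157 of them, 149 of the 155 at 1 CPM or more, and 6 others, over 19254 genes. Counting floors cover counting error only.

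The members and lists were chosen with earlier results of these data known. Genes named are the members, AC007128.1, the members' isozymes or partners, up to 3 called genes per companion list and direction with the smallest p, and the 5 genes most like the members, some of which are not reported here. ATF4, ALDH18A1 and the EIF2AK kinases come from the lists but were named after their values were seen. Alternatives were DESeq2 1.42.0, its size factors, library size only, 2 other filters, a replicate block, counts divided by 4 (a count of 4 was more frequent than 3 or 5 in every sample), no limit on fold change, each sample left out, coding transcript length and a shorter promoter window.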

Additional observations from a re-analysis of the deposited data

How the results depend on the processing

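Of 13 alternatives that kept the limit on fold change, the members called lower numbered 5 to 7 and those called higher 0. The members' median log2 fold change was -1.11 and moved to -1.18 with library size only and to -1.18 with counts divided by 4, under which ALDH1L2 was not tested. Leaving out each sample in turn gave medians from -1.15 to -1.09. ASNS, PSAT1, PCK2, CTH and PYCR1 were called in all 13, PHGDH in 12 and SHMT2 in 1. Without the limit on fold change, 4041 genes were higher and 3820 lower (1073 and 1945 with it), as were 23 and 31 companions (7 and 19 with it). The median over all genes shifted from -0.02 to -0.13 with DESeq2 and to -0.15 without a filter, fits that test more low genes.

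No shared effect of replicate number was seen, since deviations of same-numbered samples correlated at 0.031, -0.025 and -0.03. These values cannot show whether same-numbered samples were handled together. In the fit with a replicate block, 977 genes were higher and 1692 lower, 6 members were lower, the members' median was -1.12, and 20 companions were lower and 7 higher.

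Without shAC007128.1 replicate 2, the sample with the most AC007128.1 counts in its group, PHGDH was at -1.18 and SHMT2 at -0.86. ALDH1L1 then reversed to -0.0904, and leaving out 1 sample at a time moved it between -0.0904 and 0.3854. SFXN1 fell short of the limit for a call at 0.98 with library size only and at 0.95 without shAC007128.1 replicate 3. MTHFD2 was at 0.04 with library size only. The cause was not tested. CBS was at or near the counting floor, and ALDH1L2 varied widely between samples. By the longest coding transcript, PYCR1 made up 88.3% of PYCR1 and PYCR3 in shCtrl cells and 36.3% in shAC007128.1 cells.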
